A study of Mus musculus with 48 samples.

Results

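The genes described here are 9 components of central nervous system myelin: *Mbp*, *Mobp*, *Cnp*, *Mag*, *Mog*, *Cldn11*, *Mal*, *Opalin* and *Ermn*. They were chosen by symbol from the 46983 genes of the count tables, each symbol matched 1 gene identifier, and all 9 were among the 19970 genes tested, those whose counts summed over the libraries exceeded 10. Polyadenylated RNA of mouse brain was sequenced after permanent middle cerebral artery occlusion (MCAO), in 48 libraries of 11 groups. In the MCAO groups the artery was coagulated and cut, which leaves a small infarct in the parietal cortex, and tissue was taken at 3 h (n = 5), 12 h (n = 5), 24 h (n = 4), day 3 (n = 5) and day 7 (n = 5). The sham groups (n = 4 at each of the same 5 times) went through the operation without the coagulation, and the control group (n = 4) was intact cortical tissue. All mice were C57Black/6 males, 3 months old. The sources differ on the piece taken: the protocol in the labels names the injured cortical region with affected and nonaffected tissue, while the series text speaks of forebrain hemispheres and the study of almost the whole hemisphere on the injured side. A piece of the latter kind holds striatum and white matter by its nature, and how much of either each library held is not given. The study counts its replicates as mice, and the labels give a replicate letter for each library.

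Among the proteins of compact myelin, *Mbp* (myelin basic protein; chromosome 18 of GRCm38, 82475146 to 82585637, plus strand) joins the cytoplasmic faces of the membrane, and *Mobp* (chromosome 9, 120149707 to 120181484, plus strand) is a smaller basic protein of the same layer. *Mal* (chromosome 2, 127633226 to 127656695, minus strand) is a proteolipid of membrane sorting. Outside the compact layers, *Cnp* (chromosome 11, 100574904 to 100591729, plus strand) is a phosphodiesterase that keeps cytoplasmic channels open, *Mag* (chromosome 7, 30899176 to 30914873, minus strand) is the adhesion protein facing the axon, and *Mog* (chromosome 17, 37010743 to 37023398, minus strand) lies on the outermost lamella. *Cldn11* (chromosome 3, 31149920 to 31164324, plus strand) forms the tight junctions between lamellae, *Ermn* (chromosome 2, 58045113 to 58052864, minus strand) is a cytoskeletal protein of mature oligodendrocytes, and *Opalin* (chromosome 19, 41061710 to 41077113, minus strand) is a membrane glycoprotein of oligodendrocytes.

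Myelin is the membrane that oligodendrocytes wrap around axons, and it is far denser in white matter such as the corpus callosum than in the cortical gray matter. The proteins of these genes have separate places in it: some hold the compacted layers together, others sit on the outer surface or at the contact with the axon, and one seals the layers as a tight junction. After ischemia oligodendrocytes can be lost, can become reactive, and can be renewed from precursor cells. In a bulk library, fewer oligodendrocytes and less RNA per oligodendrocyte cannot be told apart, nor can either be told from a smaller share of white matter in the piece.

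The promoters of 3 of these genes are shown, in the order of their matches to motifs of oligodendrocyte transcription factors. The sequences come from RefSeq (GRCm38.p6) and run 5′ to 3′ on the strand of the gene up to the start of transcription. Capitals mark matches to ACAAAG or ACAATG, cores bound by SOX proteins such as SOX10, or to CTGGCAC or CTGGTAC, the core bound by MYRF, each on either strand. The *Mobp* sequence covers chr9:120149492-120149706 (plus strand, 215 bases), the *Mag* sequence chr7:30914923-30915172 (minus strand, 250 bases) and the *Cldn11* sequence chr3:31149670-31149919 (plus strand, 250 bases).
Mobp: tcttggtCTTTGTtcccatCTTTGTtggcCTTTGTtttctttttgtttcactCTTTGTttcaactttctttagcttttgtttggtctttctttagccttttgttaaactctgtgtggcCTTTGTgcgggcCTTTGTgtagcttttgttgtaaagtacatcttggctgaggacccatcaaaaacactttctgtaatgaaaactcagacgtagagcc
Mag: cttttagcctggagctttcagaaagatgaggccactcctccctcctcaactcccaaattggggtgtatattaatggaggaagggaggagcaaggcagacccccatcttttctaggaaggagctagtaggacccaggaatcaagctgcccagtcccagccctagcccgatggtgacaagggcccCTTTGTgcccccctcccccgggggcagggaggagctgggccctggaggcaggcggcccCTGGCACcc
Cldn11: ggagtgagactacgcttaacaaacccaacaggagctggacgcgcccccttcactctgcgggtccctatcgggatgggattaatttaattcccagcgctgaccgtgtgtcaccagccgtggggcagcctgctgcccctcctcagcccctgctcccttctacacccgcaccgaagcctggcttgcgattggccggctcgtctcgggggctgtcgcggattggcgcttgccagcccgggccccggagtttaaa
The 250 bases upstream of 8 of the 9 genes were searched. For *Mobp* and *Cnp* these bases include part of an annotated exon of the gene. That part was left out of the *Mobp* sequence shown (215 bases), which holds all 6 of its matches. The matches of *Cnp* were not placed relative to the exon. *Mobp* held 6 SOX matches, *Mag*, *Cnp*, *Ermn* and *Opalin* held 1 each, and *Cldn11*, *Mal* and *Mog* held 0, so that 5 of 8 had a match, against 25.2% of all 32851 promoter windows of that length. A MYRF match lay upstream of *Mag*, *Cnp* and *Mog*, 3 of 8, against 5.9% of all windows. These letters describe the windows and were not tested as binding sites.

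The libraries held between 1522668 and 2826735 counts on genes (median 1935855), and markers of neurons were abundant in all of them (a mean log2(CPM + 1) of 8 markers between 8.37 and 9.32). Levels are given as CPM, the counts scaled to library size with the TMM factors of edgeR. The 9 genes together took between 0.08% and 0.435% of the counts on genes, and single libraries held from 2 to 72 counts of *Opalin*, from 18 to 123 of *Mog*, and from 730 to 4920 of *Mbp*. Over all genes, 3 libraries stood apart from their groups (sham 12 h replicate A, MCAO 12 h replicate D and sham day 7 replicate D), with the highest values on the first component of the deviations from the group means, which carried 16.8% of that variance. In these the *Mag* level was 0.279, 0.339 and 0.269 of the *Mbp* level, while it was 0.084 to 0.179 of it in the other 45 libraries. The median and the calls of the 9 genes against sham at 12 h and day 7 are therefore also given without these 3 libraries. This alternative was chosen after the data had been seen. It took only the high end of the first component (0.444, 0.432 and 0.358). Sham 12 h replicate C, at -0.397 on the other end, was kept in it. The results of the other gene lists rest on all 48 libraries. Over all genes, the calls on day 7 against sham fell from 698 to 253 without the 3 libraries.

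The levels of the myelin genes differed widely between libraries of the same group. The mean log2(CPM + 1) of the 9 genes had a pooled within-group SD of 0.532. Its group means were 5.94 in MCAO at 12 h, 7.16 in MCAO on day 3 and 6.39 to 6.74 in the other groups. Of its sum of squares over the 48 libraries, 71.9% lay within groups (54.3% for *Mog* to 86.1% for *Mobp* when taken singly). With 11 groups of 4 or 5 libraries, most of that sum lies within groups even where groups do not differ. The share alone therefore does not compare the 2 spreads. The spread between replicates beyond counting error, as edgeR's biological coefficient of variation, was 29.8% for *Cnp* to 42.1% for *Opalin*, against a median of 19.2% over the 8448 genes with mean levels in the same range.

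**Figure D1:**
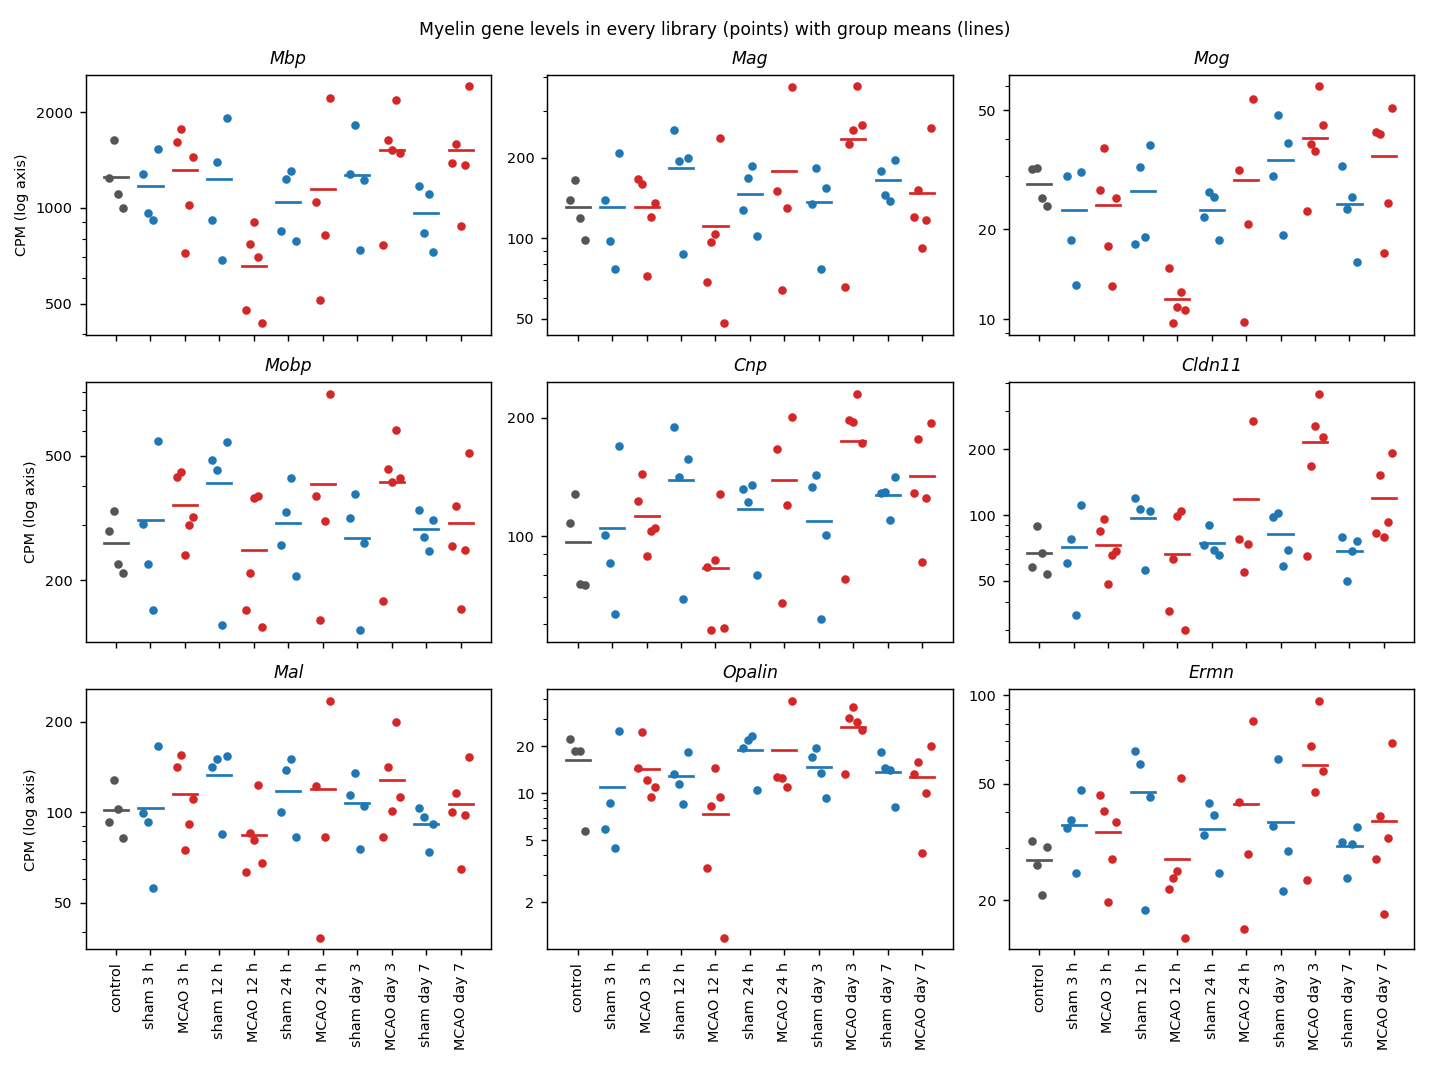
Levels of the 9 myelin genes in CPM (log axis) in each of the 48 libraries, with 1 panel per gene and the 11 groups on the horizontal axis (gray, control; blue, sham; red, MCAO; lines, group means). The MCAO libraries at 12 h lie low in most panels, with *Mog* between 9.71 and 14.8 CPM, and the *Cldn11* panel has its highest group mean, 214 CPM, on day 3 after MCAO.

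As an index of the whole set, the geometric mean of the 9 levels was 67.4 to 108 CPM in the control libraries. It reached its lowest value of all libraries in MCAO 12 h replicate E (34.4 CPM) and its highest in MCAO 24 h replicate D (224 CPM), followed by MCAO day 3 replicate D (222 CPM). The sham libraries of day 7 were closest to each other, between 82.0 and 104 CPM. The widest group was MCAO at 24 h, whose libraries held 105, 48.1, 81.6 and 224 CPM. Such extremes were shared by the genes: in MCAO 24 h replicate D all 9 were the highest of their group, in MCAO day 3 replicate A all 9 were the lowest, and in MCAO day 7 all 9 were the lowest in replicate C and the highest in replicate E.

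Of the compact myelin genes, *Mbp* had its lowest group mean in MCAO at 12 h, 657 ± 197 CPM (SD, n = 5), and its highest in MCAO on day 7, 1523 ± 560 CPM (SD, n = 5). The control mean was 1246 ± 280 CPM (SD, n = 4). In *Mobp* the means ran from 250.1 ± 112 CPM (MCAO at 12 h) to 414 ± 155 CPM (MCAO on day 3), and in *Mal* from 84.1 ± 23.5 CPM (MCAO at 12 h) to 133 ± 32.6 CPM (sham at 12 h). For these 3 genes, as for *Mag*, *Cnp*, *Cldn11*, *Opalin* and *Ermn*, the libraries of each of the 10 pairs of neighboring groups in the order of means overlapped. *Mog* was the exception, with 1 pair of neighbors that did not overlap: sham at 24 h (18.4 to 26.5 CPM) lay above MCAO at 12 h (9.71 to 14.8 CPM), the lowest of its 11 groups.

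At 3 h no difference between MCAO and sham was detected in the myelin genes. A gene was called where edgeR's quasi-likelihood test gave a p under 0.01 after Benjamini-Hochberg adjustment and the log2 fold change exceeded 0.58 in either direction. At 3 h 0 of 9 were called, against 0.11% of all genes tested, and 0 of 9 had an unadjusted p under 0.05. DESeq2 also called 0. The log2 fold changes lay between -0.09 (*Ermn*, SE 0.37) and 0.40 (*Opalin*, SE 0.46), with a median of 0.10, while the median over all genes was 0. That median was -0.08 without sham replicate C and 0.34 without sham replicate D, and 0.0043 with the mean level of striatal genes as a covariate, so its sign rested on single libraries. The 5 MCAO and 4 sham libraries overlapped for all 9 genes, whereas 3.58% of all genes had groups that did not overlap.

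At 12 h all 9 myelin genes had lower fitted levels after MCAO than in sham, none past the thresholds. The question of this comparison is whether the first hours of permanent occlusion changed the transcripts of mature oligodendrocytes beyond the operation itself. edgeR called 0 of 9 genes, against 0.411% of all genes, DESeq2 called 0 as well, and 5 of the 9 (*Mbp*, *Mog*, *Cnp*, *Mal* and *Ermn*) had an unadjusted p under 0.05, as had 14.6% of all genes. The median log2 fold change of the 9 was -0.75, with a range of -1.18 to -0.54, and the median over all genes was 0.01. The sign of all 9 was the same with DESeq2's size factors and with scaling to the spike-in RNAs, and in every fit that left out 1 library. As these genes varied together within groups, neither their signs nor their p-values count as separate results.

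*Mog*, the surface glycoprotein, stood lowest. The MCAO libraries A to E held 14.8, 9.71, 10.95, 12.3 and 10.7 CPM (40, 20, 21, 21 and 18 counts), and the shams A to D held 17.9, 32.3, 18.9 and 38.2 CPM. Each of the 5 MCAO libraries lay below each of the 4 shams and each of the 4 controls (24.0 to 32.0 CPM). The log2 fold change against sham was -1.18 (SE 0.35, adjusted p = 0.0754 from edgeR), which did not pass the threshold. Groups that did not overlap were found for 3.29% of all genes against sham and for 5.89% against control, and among the 9 myelin genes for *Mog* against sham and for *Mog* and *Mbp* against control.

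*Mbp* held 477, 769, 901, 703 and 435 CPM in the MCAO libraries at 12 h and 913, 1395, 685 and 1917 CPM in the shams. All 5 MCAO libraries lay below the lowest control (997 CPM), while sham replicate C fell within their range. The log2 fold change against sham was -0.90 (SE 0.31, adjusted p = 0.141 from edgeR). In *Cnp* it was -0.75 (SE 0.29) and in *Opalin*, the least counted of the genes, -0.82 (SE 0.47), with 9, 17, 28, 16 and 2 counts in the MCAO libraries. *Cldn11* had the smallest difference, -0.54 (SE 0.37). Without the 3 libraries that stood apart, the median of the 9 was -0.90 and 0 were called. Sham replicate C, the lowest sham in 8 of the 9 genes, was kept in that fit.

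The 12 h difference moved with the level of striatal genes. A list of striatal neuron genes (9 of 10 measured, such as *Drd1* and *Ppp1r1b*) had a mean log2(CPM + 1) of 4.19 to 7.22 in the MCAO libraries at 12 h and 5.87 to 8.05 in the shams, and all 9 of its genes had negative log2 fold changes, with a median of -1.60 and 0 called. With that mean as a covariate in the fit, the median log2 fold change of the myelin genes at 12 h was -0.22 instead of -0.75, and that of *Mog* was -0.66 (adjusted p = 0.367 from edgeR). The same covariate brought the median at 24 h from 0.27 to 0.02, while on day 3 it was 0.60 instead of 0.65 and on day 7 0.26 instead of 0.22. The part of the dissection in this difference was not tested.

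At 24 h no difference between MCAO and sham was detected in the myelin genes, and 1 library set the sign of the median. edgeR called 0 of 9, against 0.0901% of all genes, DESeq2 called 0, and 0 had an unadjusted p under 0.05. The log2 fold changes lay between -0.02 (*Opalin*) and 0.66 (*Cldn11*, SE 0.40), with a median of 0.27. *Cldn11* held 77.7, 54.7, 73.7 and 268 CPM in the MCAO libraries and 65.5 to 90.4 CPM in the shams, so that replicate D alone lay above the shams. Without that library the median of the 9 was -0.24 and 8 of the 9 log2 fold changes were negative. No gene had groups without overlap, against 5.83% of all genes. Against control 0 of 9 were called by edgeR and by DESeq2 (0.28% of all genes by edgeR), 1 (*Cldn11*) had an unadjusted p under 0.05, and the median was 0.44, or -0.19 without replicate D.

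On day 3 the myelin genes had positive log2 fold changes after MCAO (*Mbp*, *Mog* and *Mal* only without spike-in scaling), and *Cldn11* was the 1 gene that passed the thresholds, in the comparison with control. Its level was 65.1, 167, 255, 358 and 227 CPM in the MCAO libraries A to E, 98.3, 102, 58.4 and 69.3 CPM in the shams, and 58.0, 89.4, 67.2 and 53.7 CPM in the controls. Replicates B to E lay above every sham and control, and replicate A lay among them. Against control the log2 fold change was 1.68 (SE 0.38, adjusted p = 0.00314 from edgeR), a 3.2-fold rise. Against sham it was 1.39 (SE 0.38, adjusted p = 0.0127 from edgeR), a 2.61-fold difference that missed the threshold of 0.01.

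These 2 *Cldn11* values lay close to the threshold, and single libraries decided them. Against sham, edgeR called 0 of 9 genes (4.02% of all genes), DESeq2 called *Cldn11* (adjusted p = 0.00829), and 3 genes (*Cldn11*, *Cnp* and *Mag*) had an unadjusted p under 0.05. Without MCAO replicate A the log2 fold change was 1.62 (adjusted p = 0.00125 from edgeR), and without replicate D it was 1.12 (adjusted p = 0.0609). Against control, edgeR called 1 of 9 (3.1% of all genes). That call was lost without control replicate A (adjusted p = 0.0189), C (0.0141) or D (0.0211), and without MCAO replicate C (0.0107) or D (0.0176), with log2 fold changes between 1.41 and 1.68. Scaled to the spike-ins, the log2 fold change against control was 1.31 (adjusted p = 0.0201 from edgeR), and the median over all genes was then -0.28.

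The other 8 genes on day 3 ranged in log2 fold change against sham from 0.25 (*Mal*, SE 0.30, and *Mog*, SE 0.32) to 0.85 (*Opalin*, SE 0.42). The median of all 9 was 0.65, against 0.01 over all genes, and scaling to the spike-ins left it at 0.38, with *Mbp*, *Mog* and *Mal* just under 0 and the median over all genes at -0.22. *Opalin* held 13.3, 30.3, 36.0, 28.8 and 25.6 CPM in the MCAO libraries and 9.37 to 19.4 CPM in the shams. *Mag* held 65.7, 225, 254, 370 and 265 CPM after MCAO and 77.1 to 183 CPM in sham. In both genes replicates B to E lay above the 4 shams and replicate A did not. In 0 of the 9 genes were the groups without overlap, against 7.14% of all genes. Replicate A was also the lowest of its group in the microglia list (a mean log2(CPM + 1) of 5.79, with 7.49 the highest) and in the list of reactive oligodendrocyte markers (4.06, with 6.21 the highest).

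On day 7 edgeR called 0 of 9 genes against sham (3.5% of all genes) and 0 of 9 against control (1.5% of all genes), and DESeq2 called 0 in both. Against sham 2 genes, *Cldn11* and *Mbp*, had an unadjusted p under 0.05, and against control 1 gene, *Cldn11*. *Mbp* held 1380, 1586, 875, 1366 and 2408 CPM in the MCAO libraries and 1174, 832, 1107 and 727 CPM in the shams. Replicate C lay within the sham range and the other 4 MCAO libraries above it, a log2 fold change of 0.67 (SE 0.32, adjusted p = 0.189 from edgeR). *Cldn11* held 82.5, 152, 79.1, 93.1 and 192 CPM after MCAO and 49.9 to 79.5 CPM in sham, a log2 fold change of 0.80 (SE 0.38, adjusted p = 0.183 from edgeR). *Mag* and *Opalin* had log2 fold changes of -0.16 (SE 0.39) and -0.12 (SE 0.45). The groups overlapped for all 9 genes, against 10.5% of all genes that did not overlap, and the median of the 9 was 0.22 (0.23, with 0 called, without the 3 libraries that stood apart). Left out singly, MCAO replicate E lowered that median to 0.02 and MCAO replicate C raised it to 0.35.

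**Figure D2:**
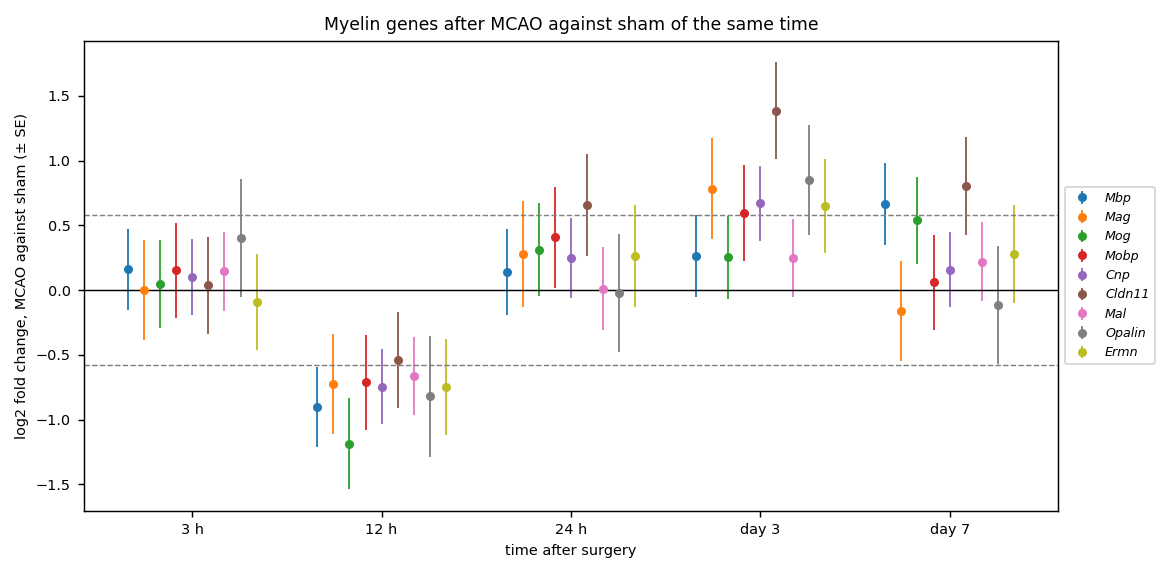
Log2 fold changes of the 9 myelin genes, MCAO against sham of the same time, with standard errors from edgeR (points and bars, 1 color per gene; dashed lines, the fold limit of 0.58). All 9 lie below 0 at 12 h (median -0.75) and above 0 on day 3 (median 0.65), where *Mbp*, *Mog* and *Mal* fall to about 0 with spike-in scaling, and none passed both thresholds against sham.

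No effect of the operation by itself was detected in the myelin genes. The mean of the 5 sham groups against control gave 0 calls of 9 with edgeR (0.02% of all genes) and 0 with DESeq2, and 0 genes had an unadjusted p under 0.05. The log2 differences ran from -0.22 (*Opalin*, SE 0.36) to 0.42 (*Ermn*, SE 0.32), with a median of 0.21, or 0.06 with spike-in scaling, under which the median over all genes was -0.16.

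The change over time was tested as the difference between the MCAO minus sham effects of 2 times. From 24 h to day 3 edgeR called 0 of 9 genes (0.01% of all genes) and the median difference was 0.38 on the log2 scale (0.03 with spike-in scaling). From day 3 to day 7 it called 0 of 9 (0% of all genes) and the median difference was -0.51, with -0.96 for *Opalin* and 0.40 for *Mbp* at the ends. With spike-in scaling the latter median was -0.11. DESeq2 called 0 in both, and 0 of the 9 had an unadjusted p under 0.05 in either. The difference between 12 h and day 3 was added after the values had been seen. It was positive for all 9 genes, from 0.91 (*Mal*, SE 0.43) to 1.92 (*Cldn11*, SE 0.53), with a median of 1.42 and an unadjusted p under 0.05 for all 9, as for 12.4% of all genes. None passed after adjustment (edgeR 0 of 9, DESeq2 0 of 9, 0.0851% of all genes by edgeR), the smallest adjusted p being 0.0658 for *Cldn11*. With the striatum mean as a covariate the median difference was 0.89. The 9 genes varied together within groups, so their p-values and signs are not independent of each other.

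Across the 48 libraries the 9 genes varied together, also within groups. With the group means taken off, the 36 pairs of genes had Pearson correlations of log2(CPM + 1) between 0.57 (*Mog* and *Opalin*, the genes with the fewest counts) and 0.94 (*Mag* and *Mobp*), with a median of 0.82. Against the mean of the other 8, *Mobp* had the highest correlation (0.97) and *Opalin* the lowest (0.73). These are descriptions over 48 libraries, and genes of 1 library share its depth and its piece of tissue.

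**Figure D3:**
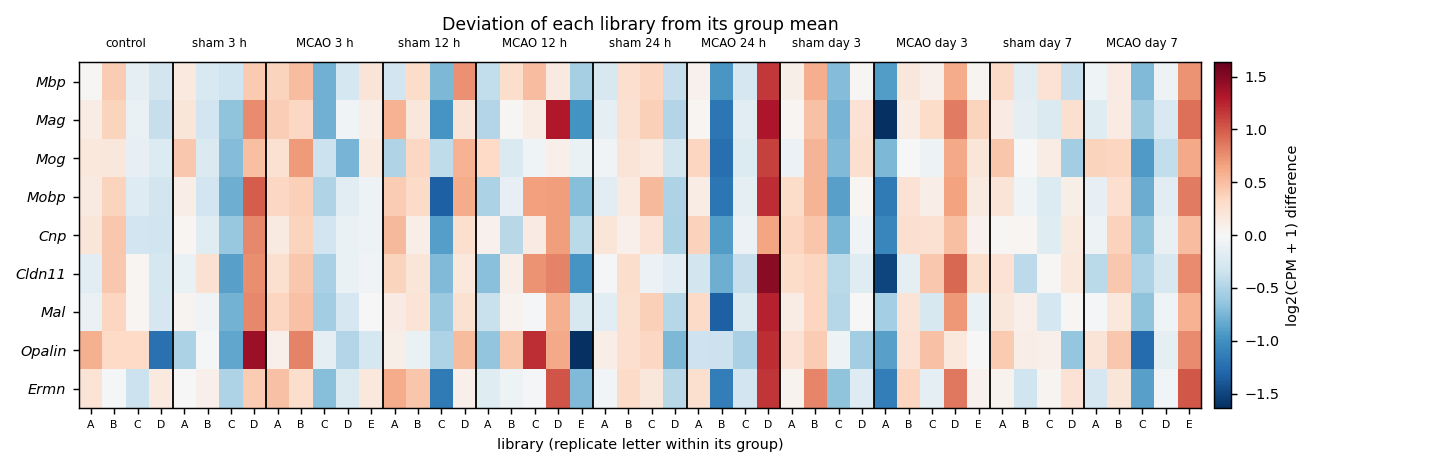
Deviation of each library from its group mean, in log2(CPM + 1), for the 9 myelin genes (rows) in the 48 libraries (columns, by group and replicate letter; red, above the mean; blue, below). Some columns have 1 color from top to bottom, as in MCAO 24 h replicate D, where all 9 genes are the highest of their group, and MCAO day 3 replicate A, where all 9 are the lowest. Others hold both colors, as in control replicate A, with *Cldn11* below and *Opalin* above the group mean.

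Other parts of the brain in the piece were read from marker lists. With group means taken off, the mean of the myelin genes correlated over the 48 libraries with the striatum list at r = 0.66 (Spearman's rho = 0.63, r = 0.62 without the 2 libraries farthest on that list), with a thalamus list at 0.46, with a deep cortical layer and subplate list at 0.10, with an upper cortical layer list at -0.05, with a hippocampus list at -0.29 and with a choroid plexus list at -0.14. The members of the thalamus list and of the deep layer list did not go together. In the thalamus list r was 0.552 for *Synpo2*, 0.445 for *Zfhx3*, 0.382 for *Tnnt1* and 0.316 for *Lef1*. It was -0.016 for *Tcf7l2*, -0.114 for *Prkcd* and -0.212 for *Slc17a6*. In the deep layer list r was 0.56 for *Tle4* and *Foxp2*, -0.15 for *Ccn2* and *Cplx3*, and -0.47 for *Fezf2*. The striatum list itself ranged from 4.19 to 8.90 over the libraries, and its highest value was in MCAO 24 h replicate D, the library highest in myelin genes. The relation was not complete: MCAO day 7 replicate E was highest of its group in all 9 myelin genes with a striatum mean of 5.51, the second lowest of that group. Whether white matter in the piece set the level of the myelin genes was not tested, since no marker of white matter other than oligodendrocyte genes was at hand.

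**Figure D4:**
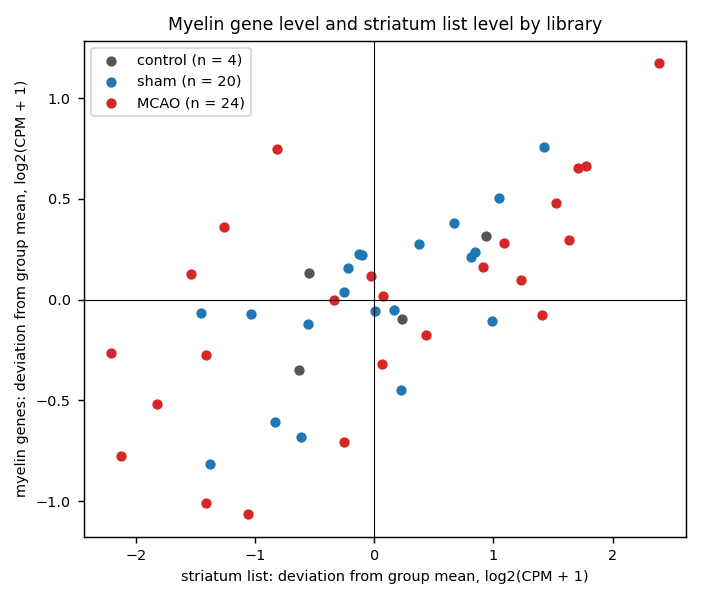
Mean log2(CPM + 1) of the 9 myelin genes against that of the striatum list, both as deviations from the group mean, for 48 libraries (gray, 4 control; blue, 20 sham; red, 24 MCAO). The points follow each other at r = 0.66, and MCAO 24 h replicate D lies at the upper right end.

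The remaining genes of the oligodendrocyte lineage were counted in lists. For these and the later lists, the share of all genes called against sham was 0.11% at 3 h, 0.411% at 12 h and 0.0901% at 24 h. It was 4.02% on day 3 and 3.5% on day 7. Of 28 other myelin and mature oligodendrocyte genes, 0 were called at 3 h, 12 h and 24 h against sham, 6 were higher on day 3 (median log2 fold change 0.61 over the list) and 3 on day 7 (median 0.53). The smallest adjusted p over the 5 times were those of *Apod*, an apolipoprotein (2.09 on day 3, adjusted p = 2.24e-08 from edgeR), *Cd9*, a tetraspanin (3.27 on day 7, adjusted p = 1.99e-05), and *Trf*, transferrin (2.73 on day 3, adjusted p = 5.29e-05). These 3 are also made by cells other than oligodendrocytes.

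At 12 h the same list had a median of -0.54, with 2 of 28 log2 fold changes positive. Over the 48 libraries with group means off, its mean correlated with that of the 9 genes at 0.95.

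Among 8 transcription factors of the lineage, 0 were called at 3 h, 12 h, 24 h and day 7 against sham, and 2 were higher on day 3. They were *Olig1*, which marks the whole lineage (log2 fold change 0.85, SE 0.21, adjusted p = 0.00471 from edgeR), and *Sox10*, which binds promoters of myelin genes (1.07, SE 0.28, adjusted p = 0.00935). *Zfp488*, the third by adjusted p, was at 0 to 5.76 CPM on day 7 after MCAO (adjusted p = 0.0511).

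Of 14 genes of precursors and newly formed oligodendrocytes, 2 were higher on day 3 and 4 on day 7. The leading genes on day 7 were *Gpr17*, a receptor of committed precursors (28.6 to 46.1 CPM after MCAO against 6.84 to 11.5 in sham, log2 fold change 1.99, adjusted p = 3.7e-05 from edgeR), *Lhfpl3* (1.71, adjusted p = 0.00158) and *Vcan*, a proteoglycan (1.07, adjusted p = 0.00612). All 14 log2 fold changes of that list were positive on day 7, with a median of 1.06, while the median of the 9 myelin genes was 0.22.

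A list of 11 reactive oligodendrocyte markers that the study named from its single-cell data had 2 genes higher at 12 h, 2 at 24 h, 8 on day 3 and 5 on day 7. Its gene *Klk6* is also in the list of other myelin genes, and the study names *Apod*, *Cd9* and *Trf*, the leading genes of that list, among the markers of its reactive oligodendrocytes as well. At 12 h and 24 h the genes called were *Serpina3n*, a serine protease inhibitor (2.94 at 12 h, adjusted p = 0.00282 from edgeR, and 3.33 at 24 h, adjusted p = 0.00184), and *Tnfrsf1a*, a receptor of tumor necrosis factor (2.11 at both times, adjusted p = 0.00171 and 0.00617). The lead on day 3 was *C4b*, a complement component (3.58, adjusted p = 3.81e-08), with *Serpina3n* (5.19, adjusted p = 6.79e-08) and *B2m* (1.91, adjusted p = 7.15e-06). *Serpina3n*, *C4b* and *B2m* are also made by other glia. Of 6 astrocyte genes 1 was higher at 12 h, 1 at 24 h, 2 on day 3 and 3 on day 7, and of 7 microglia genes 5 were higher on day 3, 3 were higher on day 7 and 1 was lower at 12 h. Of 8 neuron genes 1 was lower on day 3 and 1 on day 7, of 7 thalamus genes 1 was higher on day 3, and of 5 upper cortical layer genes 1 was lower on day 7. Over all genes 4.02% were called on day 3 and 3.5% on day 7. In the lists of striatum, hippocampus, choroid plexus and deep cortical layers edgeR called 0 genes against sham at any time.

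Defining markers of peripheral myelin were at or near 0. Of 6 Schwann cell genes, *Prx* was at 0 in 34 of 48 libraries and *Cldn19* in 32, and the mean log2(CPM + 1) of the list was 1.10 to 2.35. *Pmp22*, which other cells also make, was the 1 gene called (1.44 on day 3 against sham, adjusted p = 4.34e-04 from edgeR).

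The proportions among the 9 genes were less even than their shared movement. *Cldn11* stood out in the difference between its log2(CPM), here without an added 1, and the mean log2(CPM) of the other 8. That difference was -0.81 to -0.31 in the controls and -0.44 to -0.07 in the day 3 shams. In the day 3 MCAO libraries it was -0.04, 0.09, 0.81, 0.77 and 0.64. Replicates C, D and E lay well above the 4 shams and replicate A just above the highest of them. On day 7 the difference was -0.25, 0.34, 0.51, 0.07 and 0.19 after MCAO and -0.80 to -0.15 in sham, with replicate A inside the sham range. This proportion was singled out after the values had been seen and is given without a test.

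**Figure D5:**
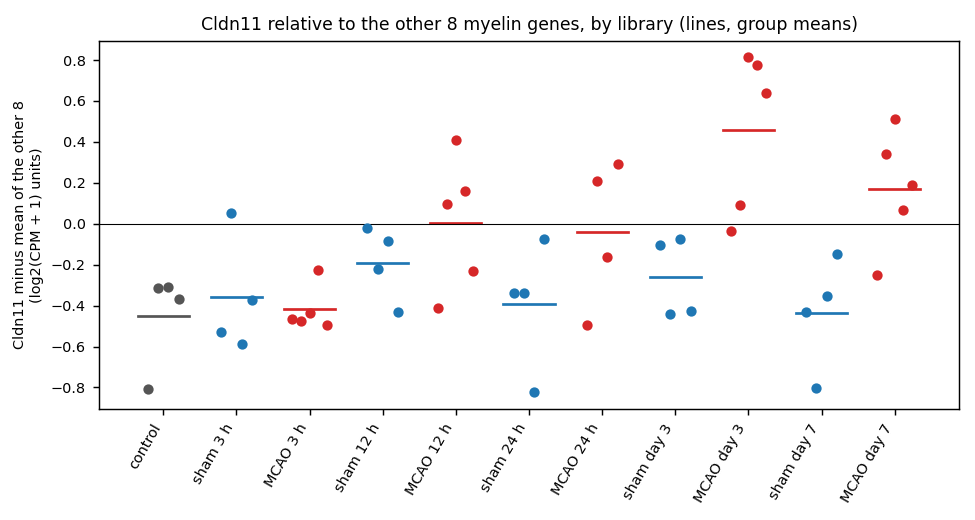
*Cldn11* minus the mean of the other 8 myelin genes, in log2(CPM), in each library by group (points; lines, group means; gray, control; blue, sham; red, MCAO). The axis label names log2(CPM + 1), but the values were taken without the added 1. The controls lie between -0.81 and -0.31, and 3 of the 5 MCAO libraries of day 3 lie at 0.64 or above.

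The ratio of *Mag* to *Mbp* was also singled out after its values had been seen and is given without a test. In most MCAO libraries it was above the shams on day 3, and on day 7 it was below them. On day 3 it was 0.086, 0.138, 0.167, 0.169 and 0.179 in the MCAO libraries A to E and 0.1 to 0.126 in sham, so that replicates B to E lay above the shams and replicate A below them. It was 0.0991 to 0.112 in the controls, 0.0854 to 0.107 in MCAO on day 7 and 0.125 to 0.269 in sham on day 7, or 0.125 to 0.175 in sham without the library that stood apart. How many other pairs of genes had ratios as far apart was not computed, and 10.5% of single genes had day 7 groups that did not overlap. At 24 h it was 0.13 to 0.15 in sham and 0.124 to 0.167 in MCAO, which overlapped. The ratio of *Mobp* to *Mbp* was 0.183 to 0.217 in MCAO and 0.224 to 0.428 in sham on day 7, and 0.203 to 0.232 in the controls, while on day 3 it was 0.224 to 0.287 in MCAO and 0.188 to 0.246 in sham. As group means, both ratios on day 7 were nearer to the controls (0.105 and 0.212) in MCAO (0.096 and 0.197) than in sham (0.18 and 0.317). The sham means include replicate D, which stood apart (0.2693 and 0.4275). Without it the sham libraries reached 0.175 and 0.3315, and the means were not computed again. Single libraries did not all follow. For *Mobp* to *Mbp*, sham replicate C (0.2235) lay within the control range. MCAO replicates A, C and D (0.1865, 0.1842 and 0.1827) lay below every control. Whether these counts near the 3′ end give the relative abundance of 2 different transcripts was not tested, so these ratios are used to compare libraries, not genes.

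The genes outside the set whose levels most resembled it were ranked by correlation with the mean of the 9 over the 48 libraries with group means off, among 11730 genes with a mean of at least 5 CPM. The first 8 were *Tmem88b* (r = 0.91, and 0.86 with the group means kept), *Ppp1r16b* (0.89 and 0.71), *Bcas1* (0.87 and 0.85), *Trf* (0.86 and 0.80), *Plekhb1* (0.85 and 0.80), *Prr5l* (0.85 and 0.84), *Ckb* (0.85 and 0.78) and *Ppp1r14a* (0.84 and 0.87). Of the first 50 genes, 12 were in the list of other myelin genes. The median over all 11730 genes was -0.03.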

How the data were processed

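The authors trimmed single-end reads of 3′ end libraries (QuantSeq, primed on the poly(A) tail, with ERCC spike-ins) with TrimmomaticSE and discarded those of ribosomal or mitochondrial origin (SortMeRNA). STAR 2.5.2b was the aligner, on GRCm38, and htseq-count (union mode, Gencode vM8) the counter. They deposited raw counts per gene, 1 table per library, used here, and a transformed matrix, not used. Symbols and positions came from Gencode vM21 on GRCm38, which matched 46488 of 46983 identifiers. Reads without a feature (median 23.5%), ambiguous (0.4%) or not unique (33.5%) and the spike-ins stayed out of library sizes and tests. With few counts, as for *Opalin*, counting error is a large part of the spread.

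Groups and replicate letters came from the labels. One edgeR 4.0.16 fit in R 4.3.3 (TMM, glmQLFit, glmQLFTest) held all 48 libraries and 11 groups, and p-values were adjusted by Benjamini-Hochberg over the 19970 genes whose counts summed over all libraries exceeded 10. Calls needed an adjusted p below 0.01 together with a log2 fold change beyond 0.58 in either direction, as in the methods of the study. The code was tested on simulated data. Correlations and means of lists used log2(CPM + 1), computed in Python 3.11.15 with pandas 2.3.3. Alternatives were DESeq2 1.42.0, DESeq2's size factors, spike-in scaling, filterByExpr, no filter, only the groups compared, a threshold of 0.05 without a fold limit, the replicate letter as a block, the striatum mean as a covariate and each library left out, and, after seeing the data, the fit without 3 libraries. The genes, lists and tests were chosen with earlier results of these data known. Named genes were the 9 members, from each list the 3 with the smallest adjusted p over the comparisons with sham, and the 8 most similar genes. Other genes named were chosen after their values were seen. The study gives its bulk replicates as mice, and no label ties a library to an animal. Genes on the opposite strand overlap *Mbp*, *Mog*, *Cnp* and *Ermn*, a gene on the same strand overlaps *Mobp*, and whether counting used the strand is not given in the sources used here. Results of some genes of the lists are not reported here.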

Additional observations from a re-analysis of the deposited data

Results flagged for a closer look

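In groups of 4 or 5 libraries, the highest or lowest level of each gene was compared with the gap to its nearest neighbor by Dixon's test, and 5 of 99 tests passed the 95% limit, about the 1 in 20 that chance gives. *Mobp* and *Mal* were low in sham 12 h replicate C, with 144 CPM against 452 to 555 CPM in the other 3 libraries and 84.7 CPM against 142 to 154 CPM. That library also lay farthest to the other side of the 3 libraries that stood apart over all genes (-0.397 on the first component). *Cnp* was low in MCAO day 3 replicate A (77.9 CPM against 173 to 230 CPM), the library in which all 9 genes were the lowest of the group. *Opalin* was low in control replicate D (5.71 CPM from 10 counts, against 18.6 to 22.3 CPM) and high in MCAO 24 h replicate D (39.1 CPM against 11.02 to 12.7 CPM). The cause of these values was not tested.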

How the results depend on the processing

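The number of myelin genes called changed in 3 of the 12 comparisons. On day 3 against control it was 1 in the fit reported and 0 with spike-in scaling and with only the groups compared, and 0 to 1 when single libraries were left out. On day 3 against sham it was 0, and 1 with DESeq2, with no filter on low counts, with the threshold of 0.05 and no fold limit, and with the striatum mean as a covariate, and 0 to 1 when single libraries were left out. For day 3 against 12 h it was 0, and 1 without the filter. The gene was *Cldn11* in each case of day 3 against sham or control. The number stayed at 0 in the other 9 comparisons under every alternative and every library left out. The cause of these changes was not tested.

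Of 846 log2 fold changes against sham recomputed under alternatives, 52 turned sign, 38 of them with 1 library left out, 7 with spike-in scaling and 5 with the striatum covariate, and none of the 52 was called. At 3 h there were 24 and at 24 h 20 such turns, and at 12 h 0. The numbers of all genes called, which give the background, ranged over the alternatives, libraries left out included, from 339 to 1643 on day 3 against sham (802 reported), from 241 to 1845 on day 7 (698) and from 13 to 277 at 12 h (82). On day 3 against sham 750 of 802 calls were higher, and 463 of 594 with spike-in scaling. Spike-in scaling moved the SD of the mean of the 9 genes in sham day 7 from 0.153 to 0.35.

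With the replicate letter as a block, 1 gene was called on day 3 against control and 0 in the other comparisons, as without it. The letters did not pair the libraries: over 20 pairs of MCAO and sham libraries with the same letter, 5 had deviations from their group means correlated over 0.1 (-0.262 to 0.148), and 6 of the libraries correlated best with their own letter. The block lowered the number of all genes called at 12 h from 82 to 53, over 1.5 times. Low counts limit *Opalin* and *Mog*.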
